A study of Mus musculus with 2 samples.

Results

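The 10 genes described here were 3 receptors for bone morphogenetic proteins (BMPs), namely Bmpr1a, Bmpr2 and Acvr1, the receptor-activated Smads Smad1 and Smad5, the inhibitory Smads Smad6 and Smad7, and the response genes Id1, Id2 and Id3. They were taken by name, and all 10 were found among the 17809 genes of the wild-type table and among the 15972 genes of the reporter table. The wild-type library came from the colon of C57BL/6 mice, with EpCAM+/CD45- epithelial cells and EpCAM-/CD45- cells mixed at equal parts after sorting. The reporter library came from the colon of Pdgfra-H2B-eGFP mice, in which a nuclear green fluorescent protein is made under the Pdgfra gene, and held mesenchymal cells sorted as GFP-positive. That sort is meant to leave out cells that do not express Pdgfra, yet 114 of its cells were immune-like and 52 epithelial by their markers, and these enter no fibroblast value below. Each library was 1 pool of 3 female mice of 8 to 12 weeks, and neither group was treated. Since each group is 1 library and its cells cannot be traced to single mice, the comparisons below could not be tested, and every value describes these libraries.

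BMPs are secreted ligands that bring together type I receptors (Bmpr1a and Acvr1) and type II receptors (Bmpr2) at the cell surface. The type I receptor then phosphorylates Smad1 and Smad5, which enter the nucleus with Smad4 and bind promoters and enhancers, among them those of the Id genes and of Smad6 and Smad7, whose products switch the signal off again. Id proteins lack a DNA-binding region and hold E proteins away from DNA. In the colon, BMP signalling is known to be low at the crypt base, where antagonists from the underlying fibroblasts protect the stem cells, and higher toward the surface.

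Activated Smad1 and Smad5 bind GC-rich letters, so the 250 bases before RefSeq gene starts (build GRCm38.p6) were searched on both strands for GGCGCC, which is its own reverse complement, and for GGAGCC, read as GGCTCC on the other strand. These motifs do not overlap each other. RefSeq windows were matched for 8 of the 10 genes, in 10 windows, and not for Smad7 and Id1. GGCGCC was present in 9.59% of 32851 windows of the same length and GGAGCC in 26.0%, so a match is common. Bmpr1a, Bmpr2, Acvr1 and Smad5 had sites as well, not printed here, so a site was not particular to the response genes. The following sequences show the sites before the response gene starts, each 5′ to 3′ on the gene's strand with the motif in capitals.
Id2, GGCGCC, chr12:25096306-25096335, minus strand: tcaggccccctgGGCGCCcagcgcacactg
Id2, GGAGCC, chr12:25096163-25096192, minus strand: gtatgatggacgGGAGCCcttccaccaatg
Id3, GGAGCC on the other strand, chr4:136143623-136143652, plus strand: cctcgcatccgaGGCTCCgctgtcctcggc
The motifs began 231 and 88 bases before the Id2 start and 187 bases before the Id3 start. The Id2 site nearer the start and the Id3 site lie within an annotated exon of another transcript model.

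Smad6 is shown whole because its window held GGAGCC at 2 places, 102 and 18 bases before the start, with no annotated exon under it.
Smad6, chr9:64022060-64022309, minus strand: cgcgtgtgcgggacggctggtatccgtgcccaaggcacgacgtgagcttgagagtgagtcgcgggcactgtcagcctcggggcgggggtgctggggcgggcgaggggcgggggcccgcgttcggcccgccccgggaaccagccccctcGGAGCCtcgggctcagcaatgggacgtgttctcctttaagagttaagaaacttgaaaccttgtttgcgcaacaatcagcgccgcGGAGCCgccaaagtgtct
The Smad1 window held neither motif, which says only that these letters are not in that stretch. Whether a Smad protein bound any of these sites was not measured.

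Values are corrected counts, that is, UMI counts that the authors' SCTransform step moved to a common depth, and a level is the corrected count averaged over the cells of a class. The wild-type table held 7495 cells with summed corrected counts of 6120 to 16389 per cell (median 8972), and that of the reporter library 4409 cells with 2314 to 4432 (median 3150). A median of 2804 genes was detected per wild-type cell and of 1381 per reporter cell. The libraries were made with different kit versions and corrected separately, so no level was compared between them, and 1 cell barcode occurred in both. Mitochondrial genes took a median of 9.07% of corrected counts in wild-type cells and of 2.33% in reporter cells. In the wild-type library, Epcam, an epithelial gene, was above 0 in 29.8% of CBFs1-like and 52.1% of CTFs-like fibroblasts, so that a share of this order can arise without expression by the class itself.

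Cells were clustered without the 10 genes and without the other BMP pathway genes, and clusters were named from marker lists. Crypt base epithelium combined 351 stem-like cells, in which 8 of 12 stem markers were past 2-fold and whose leading genes included Mcm6 and Mcm3, genes of DNA replication, and 217 transit-amplifying-like cells, and surface cells were 555 enterocyte-like cells. The fibroblast classes were crypt bottom fibroblasts in their 2 types, CBFs1-like (1141 cells) and CBFs2-like (504 cells), and crypt top fibroblasts, CTFs-like (817 cells). A group of 367 cells led by Krt36 and one of 207 led by Aadac were epithelial but passed no marker list, and are named by their leading gene. Both groups count as epithelium and among the named classes below. A further 778 wild-type cells stayed unnamed and 98 epithelial cells were of mixed markers, and these enter no class or comparison below. Below, higher or lower by over 2-fold is a rule of size on the ratio of class means with 0.01 added to each, not a test.

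The Id genes had the widest spans among the genes detected in every class. Across 21 classes of the wild-type library, Id2 ranged from 0.274 corrected counts per cell in Atp12a-led enterocyte-like cells to 22.4 in interstitial cells of Cajal-like cells, the pacemaker cells of the gut wall. Id3 ranged from 0.350 in Reg4-high goblet-like cells to 28.25 in pericyte-like cells, an 80.8-fold span of levels. Id1 ranged from 0.333 in immune-like cells to 12.5 in interstitial cells of Cajal-like cells. The highest class thus was not epithelial for any Id gene. The Cajal-like class held 20 cells and the immune-like class 39, so both ends of the Id1 order rest on few cells. The top of the Id2 order rests on the same 20 cells, and the next class there was epithelial, enteroendocrine-like cells at 8.62.

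**Figure D1:**
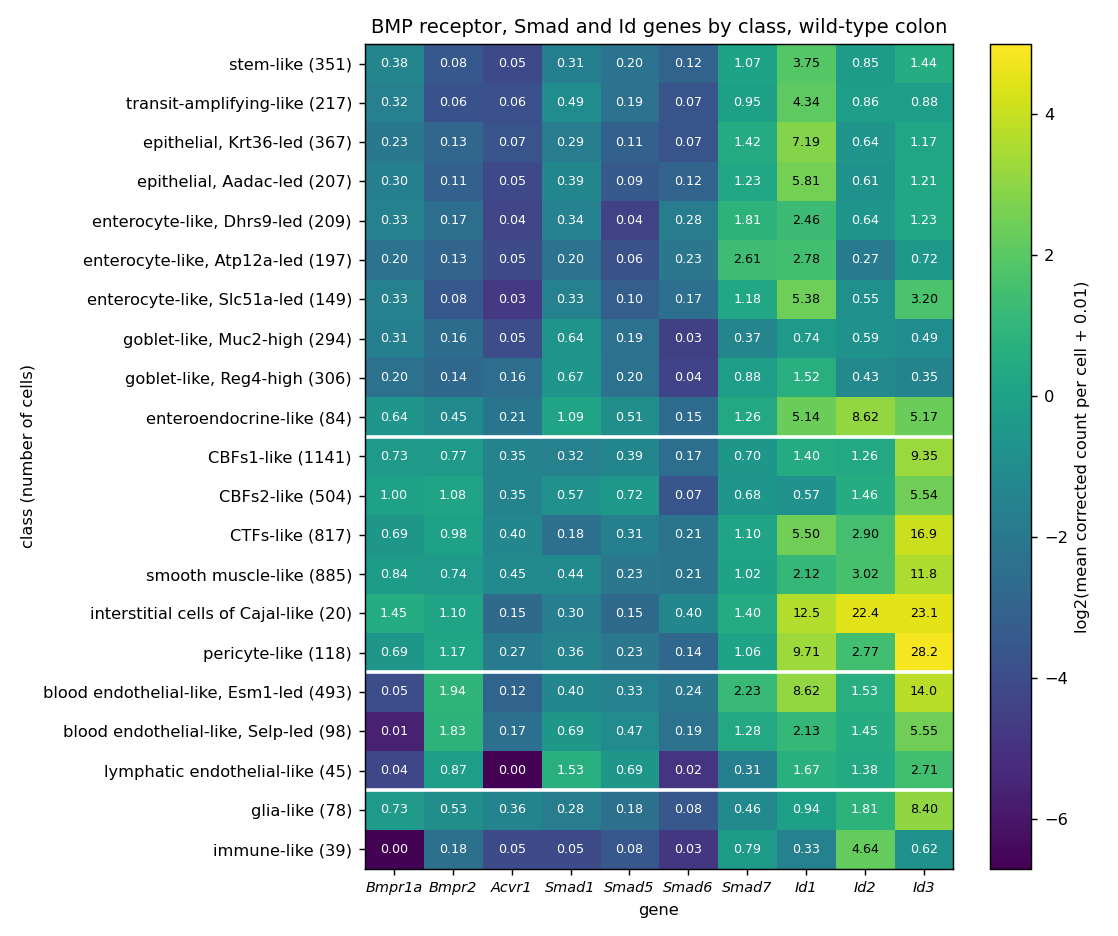
Mean corrected count (printed in each cell of the grid) of the 10 genes (columns) in the classes of the wild-type library (rows, cell number in brackets); colour is log2 of the mean plus 0.01 on 1 scale for all genes. White lines part epithelial, stromal, endothelial and other classes; Bmpr2 peaks in Esm1-led blood endothelial-like cells at 1.94, Smad7 in Atp12a-led enterocyte-like cells at 2.61 and Id3 in pericyte-like cells at 28.25.

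Smad7 had the narrowest span among genes detected in every class, 8.39-fold, from 0.311 in lymphatic endothelial-like cells to 2.61 in Atp12a-led enterocyte-like cells. Classes were also put in order of their level, and neighbours were compared by the 95% exact binomial intervals of the share of cells above 0. These overlapped in 20 of 20 pairs for Acvr1 and Smad6 and in 12 of 20 for Id1. The shares therefore did not set any neighbours in that order apart for Acvr1 and Smad6. These intervals cover counting error within 1 library only.

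All 3 receptors had higher levels in fibroblast and smooth muscle-like cells, together called stroma here, than in epithelium. In 3347 fibroblast and smooth muscle-like cells, the Bmpr2 level was 0.859, against 0.132 in 2381 epithelial cells, a 6.14-fold difference (log2 ratio 2.62). The Acvr1 level was 0.389 in stroma and 0.0722 in epithelium, 4.86-fold apart (log2 ratio 2.28). For Bmpr1a the levels were 0.792 and 0.3003, 2.58-fold apart (log2 ratio 1.37), and 49.8% of stromal and 26.7% of epithelial cells were above 0. Epithelial cells thus kept more of the type I receptor Bmpr1a, relative to stroma, than of its partner Bmpr2.

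Of the 10 genes, 6 were higher by over 2-fold in stroma than in epithelium and 0 lower, where 17.5% of the 15444 genes measured were higher and 32.6% lower (50.2% in all). Their median log2 ratio was 1.26 against -0.45 over all genes. Id3 differed most, with 11.3 in stroma and 1.24 in epithelium (log2 ratio 3.18), and Id2 and Smad5 were the other 2, at log2 ratios of 1.25 and 1.26. Smad1, Smad7 and Id1 had lower means in stroma, at log2 ratios of -0.31, -0.47 and -0.63, none over 2-fold. The related gene lists leaned the same way for secreted factors. Among the BMP ligands 9 of 10 measured were higher in stroma, and among the BMP antagonists 13 of 14, while the other Smads and Smad partners were divided, with 4 of 15 higher and 3 lower.

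Within the epithelium Bmpr2 and Acvr1 were found in few cells of most classes. Bmpr1a was above 0 in 32.5% of stem-like cells and 26.3% of enterocyte-like cells, and Bmpr2 in 7.69% and 11.5%. Acvr1 was above 0 in 3.96% of enterocyte-like cells, and among goblet-like cells, the mucus producers, in 16.3% of the 306 Reg4-high cells and 5.44% of the 294 Muc2-high cells. Enteroendocrine-like cells, the hormone producers, had the highest epithelial levels of all 3 receptors, at 0.643 for Bmpr1a, 0.452 for Bmpr2 and 0.214 for Acvr1, in 84 cells. The fibroblast marker list summed to 7 corrected counts in these cells, against 0.5405 over all epithelium. A median of 3718 genes was detected per enteroendocrine-like cell, against 3208 over all epithelium. The part of either in these levels was not tested.

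Blood endothelial-like cells stood apart from the other classes by their receptors. Their Bmpr1a level was 0.0474, with 3.38% of 591 cells above 0 (95% interval 2.08 to 5.18%), against 0.586 and 39.8% in 6028 cells of the other named classes, a 10.4-fold lower level. Bmpr2 was at 1.92 against 0.570, a 3.33-fold higher level (log2 ratio 1.74), with 67.0% of cells above 0. The pattern held in both endothelial clusters. Bmpr1a was at 0.0548 in the 493 Esm1-led cells and at 0.0102 in the 98 Selp-led cells, where Bmpr2 was at 1.94 and 1.83.

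Lymphatic endothelial-like cells shared the low Bmpr1a, with 4.44% of 45 cells above 0, and had Acvr1 above 0 in none of the 45, which allows a share of up to 6.67%. Their Smad1 level, 1.53, was the highest of any class. In immune-like cells Bmpr1a was above 0 in none of 39 cells, which allows a share of up to 7.69%.

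**Figure D2:**
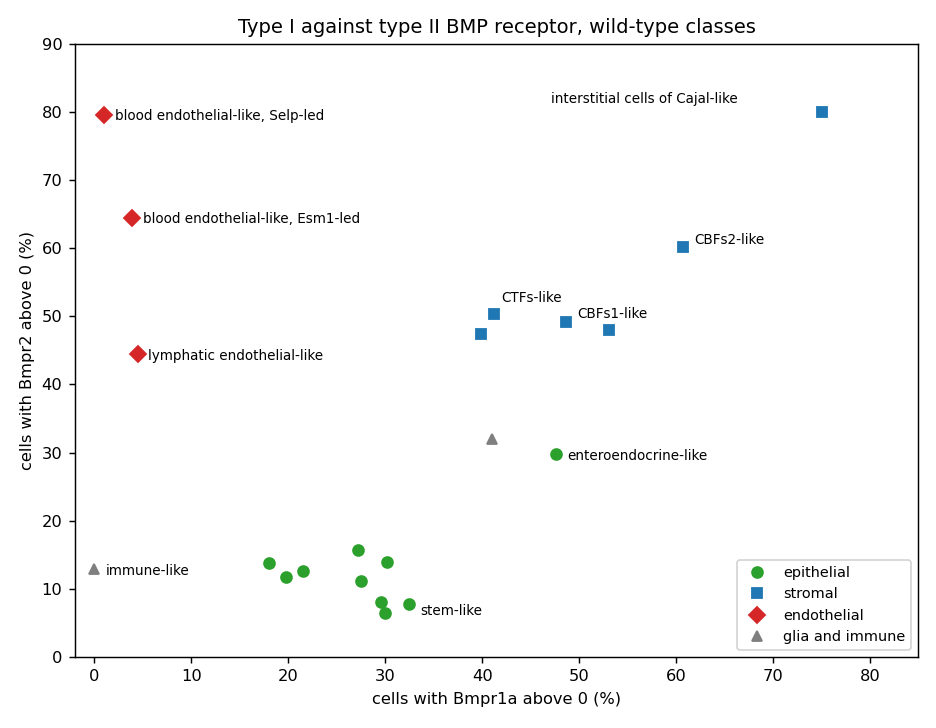
Share of cells with a corrected count above 0 for Bmpr1a (percent, x axis) and Bmpr2 (percent, y axis), with 1 point for each wild-type class and the colour and shape giving its compartment. The endothelial classes sit to the upper left, Selp-led blood endothelial-like cells at 79.6% for Bmpr2 and 1.02% for Bmpr1a, while stem-like cells sit at 7.69% and 32.5% and the fibroblasts to the right at over 40% for both.

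Of the 10 genes, 3 were higher by over 2-fold in blood endothelial-like cells and 1 lower, against 6.6% of 15834 genes higher and 31.6% lower (38.2% in all). Of the genes past 2-fold here 17.3% were higher, and 29.2% with cells thinned to 1000 counts. Beside Bmpr2, the higher ones of the 10 were Id1, at 7.55 against 3.14 (log2 ratio 1.27), and Smad7, at 2.08 against 1.01 (log2 ratio 1.03). Id1 was 8.62 in the Esm1-led and 2.13 in the Selp-led cells, and Smad7 was 2.23 and 1.28, so both genes were past 2-fold through the Esm1-led cluster. Smad6 (log2 ratio 0.60) and Id3 (0.75) had higher means within 2-fold, and Acvr1 (-0.92) a lower mean.

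Among the other BMP and activin receptors and co-receptors, 4 of 14 were higher in blood endothelial-like cells and 6 lower, and of the BMP antagonists 13 of 14 were lower. Acvrl1, a type I receptor for BMP9 and BMP10 in vessels, was at 2.74 against 0.732 (log2 ratio 1.89), and its co-receptor Eng at 4.95 against 0.426 (log2 ratio 3.51). These 2 genes were singled out after their values were seen. Immediate early genes, which rise with cell handling, also moved with this class: the summed level of 21 of them was 244.3, against 132.0 in CBFs-like and 104.5 in epithelial cells. The Esm1-led cells had Epcam above 0 in 83.0% and Col1a1, a fibroblast gene, in 70.0%, and the part of either in these values was not tested.

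Along the crypt the response genes and the inhibitory Smads did not share a direction. From crypt base to enterocyte-like cells Smad6 was higher, from 0.0986 to 0.232 corrected counts per cell (log2 ratio 1.16), and Smad5 lower, from 0.195 to 0.0631 (log2 ratio -1.49). Smad7 went from 1.02 to 1.92 (0.90), just inside the 2-fold rule. Of the Id genes, Id1 was at 3.98 and 3.36, Id2 at 0.854 and 0.487, and Id3 at 1.23 and 1.58, all within 2-fold. Thus 1 gene was higher and 1 lower, where 11.9% of the 12097 genes measured were higher and 31.3% lower (43.2% in all).

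The median log2 ratio of the 10 genes was -0.27, against -0.47 over all genes, so the lower means of Bmpr1a (-0.32), Acvr1 (-0.29), Smad1 (-0.38) and Id1 (-0.24) lay above the general shift. The sign of several was unsettled: Bmpr1a was at 0.57 when each cell was thinned to 1000 counts, and Acvr1 at 0.10 with a lower clustering resolution. The mitochondrial share moved with this comparison, since 80 of 555 enterocyte-like and 343 of 568 crypt base cells were at or below 10%. In those cells the log2 ratios were 1.5 for Bmpr2, 1.36 for Smad6, 1.33 for Id3 and -0.81 for Smad5. The share of all genes past 2-fold in those cells is not given here. In the same cells Bmpr1a was at 0.22, Acvr1 at 0.38 and Id1 at 0.10, each with its sign turned.

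A finer view came from the stem-like, transit-amplifying-like, enterocyte-like and unnamed epithelial cells, put in order by the enterocyte marker list minus the stem marker list and divided into 5 ranges of 339 or 340 cells. As a check, Lgr5 fell from 1.12 in the first range to 0.00295 in the last, and Krt20, a surface keratin, went from 0.00882 to 11.1. These markers made the score and are no finding. Smad7 was higher in each successive range, at 0.994, 1.20, 1.28, 1.63 and 2.04. Smad5 was lower in each, at 0.244, 0.132, 0.115, 0.0678 and 0.0413, and the share of cells above 0 fell from 22.6% to 4.13%.

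Smad6 changed between the third and the fourth range, at 0.0971, 0.0824, 0.0856, 0.189 and 0.236. Id1 was highest in the second range and lowest in the last, at 4.67, 5.88, 5.39, 4.55 and 2.96. Id2 was highest in the first range, at 1.09, and lowest in the last, at 0.454. Id3 dipped in the middle and ended near its first value, at 1.45, 1.06, 1.04, 1.55 and 1.55. The mean levels of the inhibitory Smads therefore peaked at the surface end, where those of Id1 and Id2 were lowest. By the share of cells above 0, Id2 was lowest in the third range, at 27.4%, against 30.4% in the last. A median of 3408 genes was detected per cell in the first range and of 2830 in the last. The part of this in the levels was not tested.

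**Figure D3:**
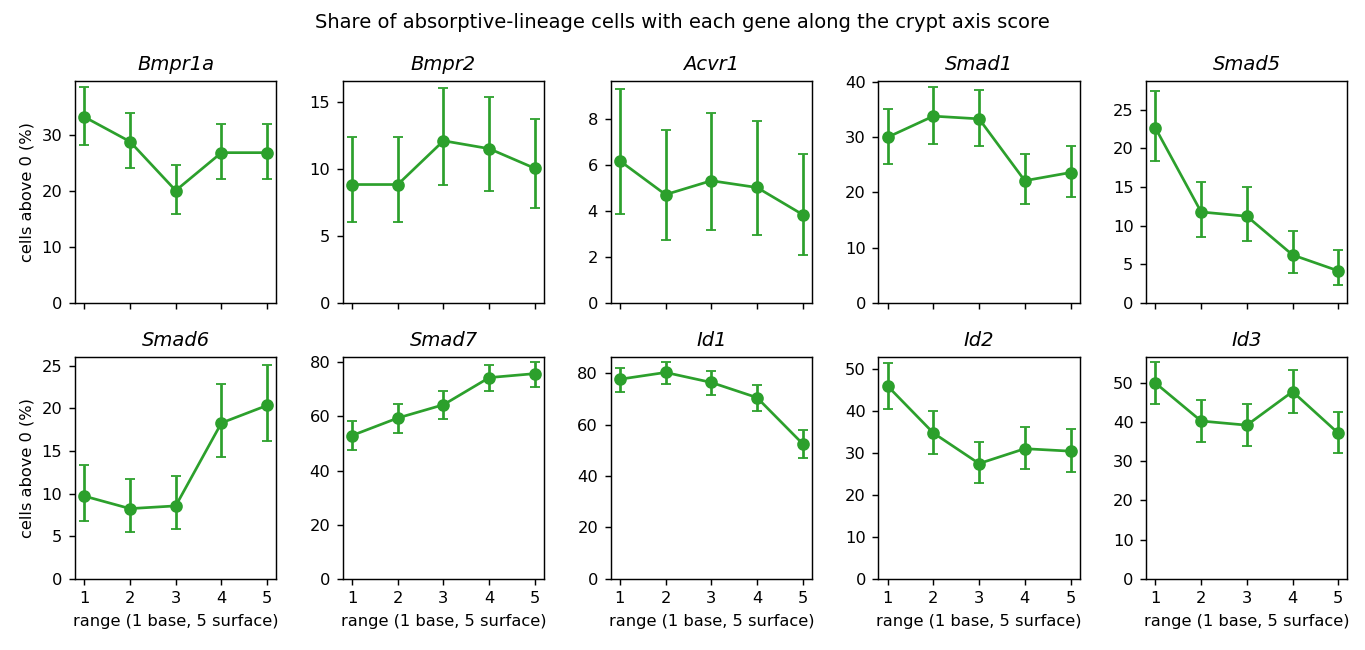
Share of cells with a corrected count above 0 (percent, y axis from 0, each gene on its own scale) in 5 ranges of the crypt score, from the base (range 1, 340 cells) to the surface (range 5, 339 cells), with 95% exact binomial intervals that cover counting error only. Smad7 climbs from 52.9% to 75.8% and Smad6 from 9.71% to 20.3%, Smad5 drops from 22.6% to 4.13%, and Id1 stays between 70.5% and 80.3% until it drops to 52.5% in range 5.

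The ranges are cuts of a continuous score, with 30 to 132 cells within 0.05 of a cut, and the third range held 173 of the Krt36-led cells, which no marker list named. Bmpr1a was at 0.388, 0.324, 0.209, 0.292 and 0.289 along the ranges, and the sign of its change from first to last flipped when cells were thinned (-0.41 as measured, 0.36 thinned).

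The enterocyte-like clusters were not alike. Smad7 was 2.61 in the 197 Atp12a-led cells and 1.18 in the 149 Slc51a-led cells. Id1 went the other way, at 2.78 and 5.38, and so did Id3, at 0.721 and 3.20. In Dhrs9-led cells, the largest of these clusters with 209 cells, Smad6 was at 0.278 and Id1 at 2.46.

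Goblet-like cells had low Id1 (1.14), Id3 (0.418, with 17.2% of cells above 0) and Smad6 (0.0367), and high Smad1 (0.655, with 51.3% above 0). Enteroendocrine-like cells had Id2 at 8.62, with 86.9% of cells above 0, Id3 at 5.17, Id1 at 5.14 and Smad1 at 1.10. Among epithelial classes, enteroendocrine-like cells had the highest Id2 and Id3, and goblet-like cells the lowest Id3. The part of the fibroblast list sum in enteroendocrine-like cells, 7 corrected counts, in these Id levels was not tested.

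Of the other pathway genes in the epithelium, Bmp2, a ligand, was 1.16 in enterocyte-like and 0.0775 in crypt base cells (log2 ratio 3.75), 1 of 3 ligands measured that was higher. Bmp7 was the 1 that was lower (-1.17). Among the other receptors and co-receptors, 1 of 12 was higher, Eng (2.18, from 0.00176 to 0.0432), and 5 were lower, among them Bambi, a decoy receptor (-2.77), and Rgmb, a BMP co-receptor (-2.12). The Eng ratio rests on summed counts of 24 and 1. The blood endothelial marker list summed to 3.31 in Dhrs9-led enterocyte-like cells, against 0.0457 in Atp12a-led and 0.0269 in Slc51a-led cells. Its part in the Eng value was not tested. Of the antagonists Nbl1 was higher (1.08) and Twsg1 lower (-2.12), of 2 measured. Receptor and co-receptor transcripts were thus lower at the surface more often than higher, as were transcripts in general.

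Smad4, the shared partner of Smad1 and Smad5, fell from 1.25 at the crypt base to 0.373 in enterocyte-like cells (log2 ratio -1.72). Nedd4l and Smurf1, ubiquitin ligases that act on Smads, were higher, at log2 ratios of 1.43 and 1.07, so that 2 of 13 Smads and partners were higher and 1 lower. Of the other BMP response genes, 1 of 8 was higher, Klf4 (10.9 against 1.57, log2 ratio 2.79), a transcription factor of differentiated epithelium, and 5 were lower, among them Hes1 (-1.91), a Notch target. Among the E proteins, 1 of 3, Tcf3, was lower (-2.49).

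Crypt top fibroblasts had higher Id1 and Id2 than crypt bottom fibroblasts by over 2-fold in both libraries, and no receptor differed by that much in either. In the wild-type library the Id1 level was 5.50 in the CTFs-like and 1.15 in the CBFs-like class, a 4.76-fold difference (log2 ratio 2.25), with 87.9% (95% interval 85.45 to 90.04%) and 44.2% of cells above 0. Id2 was at 2.90 and 1.32 (1.13) and Id3 at 16.9 and 8.18 (1.04). Smad1 was the 1 gene that was lower by over 2-fold, at 0.182 and 0.393 (-1.07). Levels of these 3 receptors were within 2-fold, with log2 ratios of -0.23 for Bmpr1a and 0.18 for both Bmpr2 and Acvr1.

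The same comparison in the reporter library, made of other mice, gave 0.916 and 0.185 for Id1, a 4.76-fold difference again (log2 ratio 2.25), with 43.9% and 13.1% of cells above 0. Id2 was at 1.58 and 0.572 (1.45) and Id3 at 6.42 and 3.78 (0.76). The receptors were at log2 ratios of -0.74 for Bmpr1a (0.143 and 0.246), -0.16 for Bmpr2 and -0.19 for Acvr1, so that Bmpr1a was about as far apart as Id3. Smad1 had the lower mean in CTFs-like cells here too, at 0.0701 and 0.127 (-0.78), within 2-fold. Smad6 had the higher mean in both libraries, at a log2 ratio of 0.54 (wild-type) and 0.80 (reporter), and so did Smad7, at 0.67 and 0.06.

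In the wild-type library 3 genes were higher in CTFs-like cells and 1 lower, against 4.95% of 13020 genes higher and 8.59% lower (13.5% in all). In the reporter library 2 were higher and 0 lower, against 4.89% of 12474 genes higher and 4.63% lower (9.52% in all). The median log2 ratio of the 10 genes was 0.36 in the wild-type library, where that of all genes was -0.09, and -0.05 in the reporter library, where it was 0.14.

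**Figure D4:**
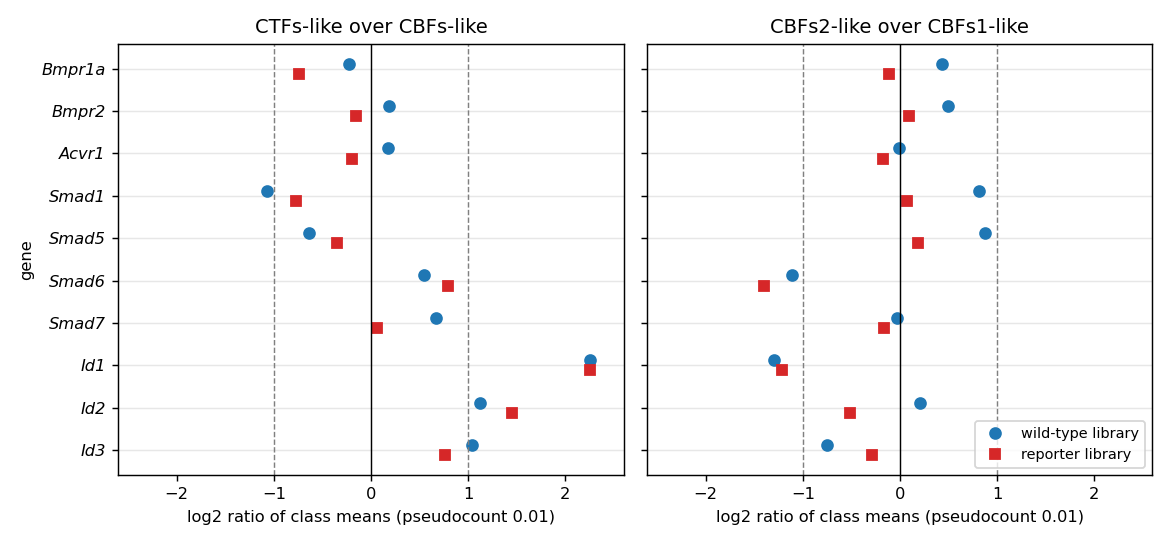
Log2 ratio of class means (x axis) for each of the 10 genes (y axis), with CTFs-like over CBFs-like cells at left and CBFs2-like over CBFs1-like cells at right; circles are the wild-type and squares the reporter library, and dashed lines mark 2-fold. Id1 sits at 2.25 in both libraries for CTFs-like over CBFs-like cells, and at -1.29 and -1.22 for CBFs2-like over CBFs1-like cells.

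Several measures moved with the CTFs-like class. The smooth muscle marker list summed to 21.9 corrected counts in the CTFs-like and 2.22 in the CBFs-like class of the wild-type library and to 10.3 and 0.669 in the reporter library, with no marker of the 10 at 0 in any of these 4 groups. The epithelial list summed to 6.19 and 4.004 in the wild-type and to 0.0976 and 0.0775 in the reporter library. Immediate early genes summed to 156.3 and 132.0, and to 97.4 and 79.6. Among cells at or below the median of those sums over the fibroblasts of a library, the log2 ratio of Id1 was 1.96 (wild-type) and 2.15 (reporter), and that of Id3 was 0.78 and 0.72. Smad7, Id1 and Id3 moved with those sums within CTFs-like cells. In the wild-type library, Smad7 was at 1.53 above and 0.677 at or below the median, Id1 at 6.68 and 4.32, and Id3 at 20.4 and 13.3. In the reporter library, Id1 was at 1.11 and 0.720 and Id3 at 7.64 and 5.21. The wild-type ratio of Smad7 to CBFs-like cells at low sums was 0.10. The part of any of these measures in the ratios was not tested.

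The CTFs-like cells of the reporter library formed a cluster of 523 cells led by Tagln, a contractile gene, and one of 133 cells led by Ptprr, and the BMP genes differed between them. Id1 was above 0 in 61.7% of Ptprr-led cells (95% interval 52.8 to 70.0%) and 39.4% of Tagln-led cells (35.2 to 43.7%), at levels of 1.39 and 0.795. Smad6 was at 0.211 and 0.0402, with 19.5% (13.2 to 27.3%) and 4.02% (2.50 to 6.07%) of cells above 0. Smad7 was at 0.211 and 0.0574. A median of 1842 genes was detected per Ptprr-led cell and of 1448 per Tagln-led cell, and the part of this in the levels was not tested. The Ptprr-led cells had the higher level of both inhibitory Smads, of Id1 and of Id3 (7.59 and 6.13). The receptors, Smad1 and Smad5 had the higher mean there too, for example Bmpr2 (0.286 and 0.145) and Smad5 (0.173 and 0.0688). Id2 ran the other way, at 0.887 and 1.76.

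The smooth muscle list summed to 2.44 in Ptprr-led and 12.3 in Tagln-led cells, and immediate early genes to 86.7 and 100.2. Without the Tagln-led cells, the log2 ratios of CTFs-like over CBFs-like cells in the reporter library were 2.18 for Smad6 and 1.23 for Smad7. Those of Id1, Id3 and Id2 were 2.85, 1.00 and 0.62. Without the Ptprr-led cells Smad6 was at 0.04 and Smad7 at -0.48. The ratios of the inhibitory Smads in the reporter library therefore rested on its Ptprr-led cells.

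**Figure D5:**
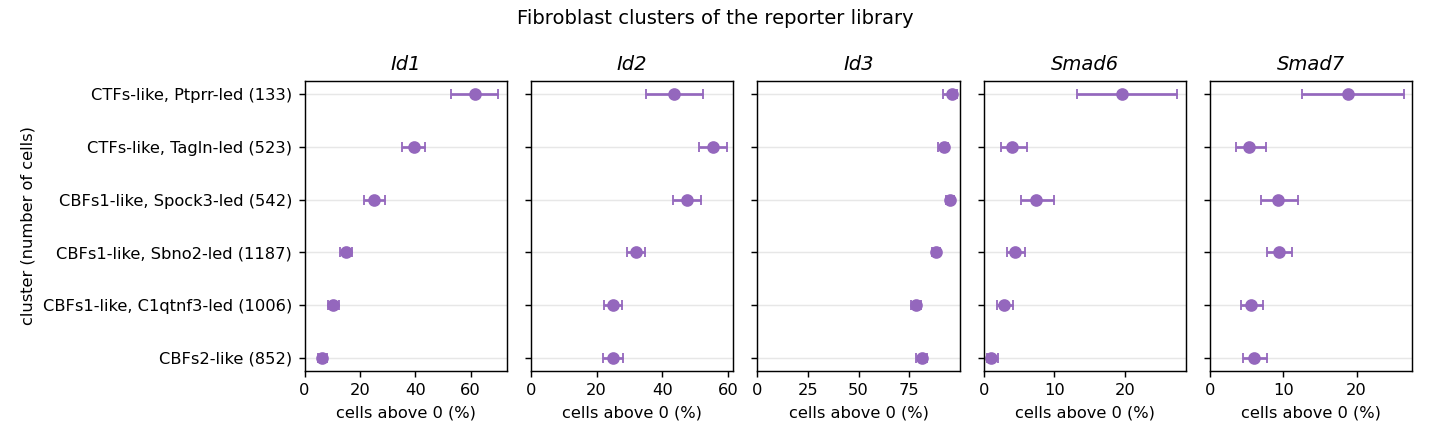
Share of cells with a corrected count above 0 (percent, x axis) for the Id genes and the inhibitory Smads in the fibroblast clusters of the reporter library (y axis, cell number in brackets), with 95% exact binomial intervals that cover counting error only. For Id1 the shares run from 6.22% in CBFs2-like to 61.7% in Ptprr-led CTFs-like cells, and for Smad6 from 1.06% to 19.5%.

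Crypt bottom fibroblasts in turn differed among themselves in Id1 and Smad6. In the wild-type library Id1 was at 0.568 in CBFs2-like and 1.40 in CBFs1-like cells (log2 ratio -1.29), and Smad6 at 0.0734 and 0.170 (-1.11). In the reporter library Id1 was at 0.0869 and 0.215 (-1.22) and Smad6 at 0.0117 and 0.0472 (-1.39). These were the 2 genes of the 10 that were lower by over 2-fold in each library, with 0 higher, against 4.26% of 12380 genes lower and 6.53% higher in the wild-type (10.8% in all) and 5.81% of 12073 lower and 3.27% higher in the reporter library (9.09% in all). CBFs2-like cells thus had the lowest Id1 and Smad6 of the 3 fibroblast classes in both libraries. With cells thinned to 1000 counts the wild-type log2 ratio of Smad6 was -0.47, within 2-fold, and that of Id1 -1.30.

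Smad1 and Smad5 leaned the other way in the wild-type library, at 0.566 and 0.722 in CBFs2-like cells against 0.317 and 0.389 in CBFs1-like cells (log2 ratios 0.81 and 0.88). In the reporter library their log2 ratios were 0.07 and 0.19. Id3 had the lower mean in CBFs2-like cells in both, at -0.75 and -0.29. Immediate early genes summed to 175.7 in CBFs2-like and 112.8 in CBFs1-like wild-type cells, against 81.7 and 79.0 in the reporter library.

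Within the CBFs1-like cells of the reporter library, Id1 was above 0 in 25.3% of the 542 Spock3-led cells, 14.9% of the 1187 Sbno2-led cells and 10.2% of the 1006 C1qtnf3-led cells. A median of 1866 genes was detected per Spock3-led cell, against 1266 per Sbno2-led and 1382 per C1qtnf3-led cell. The Spock3-led cells also had the highest Id2 (0.934) and Id3 (5.51) of these clusters. Leaving them out brought the log2 ratio of Id1 for CBFs2-like over CBFs1-like cells to -0.96, within 2-fold, and that of Smad6 to -1.19. Immediate early sums were 100.9 in Spock3-led, 102.8 in Sbno2-led and 39.1 in C1qtnf3-led cells.

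The other BMP genes of the fibroblasts moved in both directions. Of the ligands, Bmp3, Bmp7 and Bmp5 were higher in CTFs-like than in CBFs-like cells of the wild-type library, at log2 ratios of 4.37, 3.01 and 2.85, among 4 of 10 higher and 3 lower. In the reporter library Bmp3 and Bmp7 stood at 5.08 and 3.35, among 4 of 9 higher and 2 lower. Gdf10, a BMP-related ligand, was above 0 in no CTFs-like cell of the reporter library and at 0.0549 in CBFs-like cells.

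Grem1, a secreted BMP antagonist, was at 0.0122 in CTFs-like against 2.16 in CBFs-like wild-type cells (log2 ratio -6.61), and at 0.0152 and 0.619 in the reporter library (-4.64). Nbl1, another antagonist, was higher in CTFs-like cells, at 15.7 against 3.73 (2.08) and at 9.53 against 1.53 (2.63). Chrdl1 was lower in the wild-type library (-2.08) and Twsg1 higher in the reporter library (1.12). Of the antagonists measured, 4 of 12 were higher and 5 lower in the wild-type, and 2 of 11 higher and 2 lower in the reporter library, so the list had no common direction. Grem1 is also among the response genes, of which 4 of 14 were higher and 5 lower in the wild-type, and 2 of 13 higher and 2 lower in the reporter library. Higher in both were the transcription factors Tbx3 (2.27 and 1.80) and Runx1 (1.96 and 1.78).

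Tgfbr3 and Rgmb, co-receptors for TGF-beta family ligands, were lower in CTFs-like cells of both libraries, at -2.17 and -2.31 and at -2.28 and -1.37. Rgma was lower in the wild-type library (-1.25) and Acvr2a, a type II receptor, in the reporter library (-1.41). In all, 1 of 12 such receptors was higher and 4 lower in the wild-type library, and 0 of 12 higher and 3 lower in the reporter library. Zeb2, a Smad-binding repressor, was the only 1 of 15 Smads and partners past 2-fold in either library, at -2.48 and -2.08. Tcf4, an E protein and so a binding partner of Id proteins, was higher in CTFs-like cells, at 11.02 against 2.79 (1.98) and at 2.23 against 0.673 (1.72).

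Outside the fibroblasts, smooth muscle-like cells had Id2 at 3.02, with 81.1% of 885 cells above 0, and Id3 at 11.8, while their Id1, at 2.12, was below the epithelial level of 3.81. Pericyte-like cells, which wrap small vessels, had Id1 at 9.71, with 91.5% of 118 cells above 0. Their immediate early sum, 340.3, was the highest of the 21 classes. Interstitial cells of Cajal-like cells had Id1 and Id2 above 0 in all 20 cells, which allows a share as low as 83.2% by the exact interval.

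Glia-like cells had Bmpr1a at 0.731, within the range of the fibroblast classes (0.694 to 0.998), and Bmpr2 at 0.526, below that range (0.765 to 1.08). The fibroblast marker list summed to 63.8 corrected counts in glia-like cells, and its part in these values was not tested. Id1 was low in glia-like cells, at 0.936, and their immediate early sum was 304.9. In each wild-type class split at the median of its sums, Id1 was higher above the median, for example at 3.23 and 1.02 in smooth muscle-like cells. Glia-like cells were not split, and the part of handling in Id1 was not tested.

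Within classes, Id1 and Id3 went together from cell to cell. Across the 817 CTFs-like cells of the wild-type library the Pearson correlation of their log values was 0.43, which made Id3 the first of 7324 genes in likeness to Id1, and across blood endothelial-like and enterocyte-like cells it was 0.56. In CBFs2-like cells it was 0.09, at rank 189 of 7874 genes. In the reporter library it was 0.23 in CTFs-like and 0.21 in CBFs1-like cells. The blood endothelial-like and enterocyte-like classes and the reporter classes named here pool clusters. In each of them the cluster with the highest Id1 level also had the highest Id3 level. For example, Id1 was at 5.38 in Slc51a-led and 2.78 in Atp12a-led enterocyte-like cells, and Id3 at 3.20 and 0.721. The part of such cluster differences in these correlations was not tested. The cells of a class share a library and differ in depth, and these correlations are a description.

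Across the mean levels of 21 wild-type classes, the gene most like Bmpr2 of 13859 was Rilpl1 (Pearson correlation 0.97), followed by Atp2b4 (0.96) and Crip2 (0.95), and the gene most like Bmpr1a was Tead3 (0.88). Id3 was most like Mprip (0.92) and Id2 most like Tspyl4 (0.91), while the best match of Id1, Sugt1, reached 0.76. For the other genes the best matches were Mturn for Acvr1 (0.88), Mtch1 for Smad5 (0.87), Mtmr11 for Smad6 (0.85), Pik3c2a for Smad7 (0.80) and Fam222b for Smad1 (0.79). Among the 10 genes themselves the closest pairs were Bmpr2 with Id3 (0.82), Smad6 with Smad7 (0.73) and Bmpr2 with Smad5 (0.66). The classes share 1 library, and 21 points chosen by clustering are no replicates.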

How the data were processed

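Droplet single-cell libraries (10x Genomics 3′, v3 for the wild-type and v2 for the reporter library) were aligned by the authors with Cell Ranger to mm10 and filtered and normalized with Seurat 3.1 in R 3.6.2. The deposited tables hold, per the file headers and values, whole-number corrected counts from SCTransform (an integer score, not raw counts) and their natural log after adding 1. Since SCTransform moves cells to a common depth, no count model was used. Members and gene lists were chosen with earlier results of these data known.

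The natural log values deposited were clustered with Seurat 5.3.0 (R 4.3.3) on 3000 variable features, less the members and pathway genes, with 30 principal components at a resolution of 0.45 (wild-type) or 0.3 (reporter), and epithelial clusters again on 2000 features at 0.6. Clusters were named from marker lists at a log2 fold of 1 or more by a rule set after the clusters were seen. Levels are mean corrected counts per cell, and ratios are log2 with a pseudocount of 0.01, over genes with a summed corrected count of 20 or more. Shares have 95% Clopper-Pearson intervals, and a share of 0 is limited by 3 cells of the total. These cover counting error only, and UMI depth per cell before correction is unknown. The pathway genes named are, per list and comparison (crypt and CTFs-like), up to 3 past 2-fold with the largest ratio. The genes most alike are those with the highest Pearson correlation over class means, among genes reaching a mean of 0.1. The gene scripts were tested on simulated data. Scrublet, run on corrected counts in scanpy 1.11.5, marked 7 of 7495 and 5 of 4409 cells, too few to trust, so doublets were not removed and their part was not tested. The alternatives tried were other resolutions, 15 components, members kept in the clustering, another pseudocount, fold and filter, thinning to 1000, class totals, and cells above 10% mitochondrial counts or called doublets left out. Other tools were Python 3.11.15 with numpy 2.4.6, scipy 1.17.1, pandas 2.3.3 and matplotlib 3.10.9.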

Additional observations from a re-analysis of the deposited data

Results flagged for a closer look

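In 4 cases the log2 ratio between fibroblast classes had opposite signs in the 2 libraries. The difference was not tested, since each library is 1 pool. Each value was within 2-fold. For Bmpr2, CTFs-like over CBFs-like cells, the ratio was 0.18 (wild-type) and -0.16 (reporter), 0.34 apart. For Acvr1 in the same comparison it was 0.18 and -0.19, 0.37 apart. For Bmpr1a, CBFs2-like over CBFs1-like cells, it was 0.44 and -0.11, 0.55 apart. For Id2 in that comparison it was 0.21 and -0.52, 0.72 apart, and the 2 levels of Id2 in CBFs1-like cells were 1.26 (wild-type) and 0.617 (reporter).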

How the results depend on the processing

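No paired analysis was possible because each group has 1 library and no result comes from a test. Of the recomputed counts of genes past 2-fold, 78 stayed within 1.5 times the reported count and 11 did not, and the 22 ratios past 2-fold kept their direction in all 224 recomputations. With cells thinned to 1000, the count was 1 for enterocyte-like over crypt base cells, where Smad5 and Smad6 no longer reached the summed minimum of 20, and 1 for CBFs2-like over CBFs1-like wild-type cells (the cause was not tested). With a pseudocount of 0.1 these 2 counts were 0 and 1, and that for CBFs2-like over CBFs1-like reporter cells was 0. At 1.5-fold the counts were 5 for enterocyte-like over crypt base cells, 5 for CBFs2-like over CBFs1-like wild-type cells, 7 for blood endothelial-like cells and 6 for CTFs-like over CBFs-like reporter cells. Leaving out Spock3-led cells gave 1 for CBFs2-like over CBFs1-like reporter cells, and leaving out Tagln-led cells gave 4 for CTFs-like over CBFs-like reporter cells. The alternatives on immediate early sums, single reporter clusters and Krt36-led cells were chosen after seeing the data. The background share moved too, for example from 13.5% to 5.08% with a pseudocount of 0.1 and to 25.7% at 1.5-fold for CTFs-like over CBFs-like wild-type cells. For the other recomputed counts that share is not given here, so those counts are not set against it. Taking shares of class totals moved the median log2 ratio of all genes from -0.45 to -0.32 for stroma over epithelium and from -0.58 to -0.47 for blood endothelial-like cells, and thinning moved it to -0.19 and -0.29. Corrected counts do not give back the UMI depth of a cell, which limits what low genes such as Acvr1 and Smad6 can show.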
